A study of Mus musculus with 2 samples.

Results

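The IL-1 and IL-36 family was described by 8 genes in the skin sections of 2 imiquimod (IMQ)-treated mice, found by their symbols among the 19465 genes of the probe-based spatial assay, and all 8 were detected in both sections. They were the IL-36 agonists Il1f6 (IL-36α), Il1f8 (IL-36β) and Il1f9 (IL-36γ), the IL-1 agonists Il1a and Il1b, the antagonists Il1f5 (the IL-36 receptor antagonist) and Il1rn (the IL-1 receptor antagonist), and Il1rl2, the binding chain of the IL-36 receptor. One section came from an S1pr2fl/fl mouse, which carries the loxP-flanked allele of the sphingosine 1-phosphate receptor 2 without Cre, and one from an S1pr2fl/fl K14-Cre mouse, in which the keratin 14 promoter drives Cre in keratinocytes and the same allele can be removed there. Both mice were treated from 8 weeks of age on depilated back skin with 62.5 mg of 5% IMQ cream a day for 7 days, so no untreated skin was in the comparison. The sections were 10 μm thick, formalin-fixed and paraffin-embedded, and were read by Visium CytAssist, in which a spot is a small area that can hold several cells of different types.

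IL-1α and IL-1β signal through the IL-1 receptor, and the 3 IL-36 cytokines signal through a receptor made of IL1RL2 and the shared chain IL1RAP, and both routes use MyD88. The antagonists occupy the same receptors without signalling, so the balance of an agonist and its antagonist sets how strongly a cell can respond. In skin, keratinocytes are a main source of IL-36 and of both antagonists, IL-36 cytokines are known for their part in psoriasis, and IL-1β is made mainly by myeloid cells.

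Each genotype was 1 section of 1 mouse, so no test between genotypes was possible and no p-value is given. The 95% intervals below cover counting error only, and the difference between genotypes cannot be told apart from a difference between these 2 mice, pieces of skin or libraries. Fewer cells of a type and less RNA per cell cannot be told apart in spots either. Levels are given as CPM, the UMIs (captured molecules) of a gene divided by all UMIs of the region and scaled to a common total, and the probes of different genes can differ in yield, so a gene was compared only with itself between places or sections. Depth was 5315351 UMIs over 1282 spots for S1pr2fl/fl and 2845826 UMIs over 981 spots for S1pr2fl/fl K14-Cre, and the sections shared 357 spot barcodes, which are array positions. S1pr2 itself had 154 UMIs, 29.0 CPM (24.6 to 33.9), in the S1pr2fl/fl section and 54 UMIs, 19.0 CPM (14.3 to 24.8), in the S1pr2fl/fl K14-Cre section. In the 2 uppermost spots of each array column it stood at 16.5 and 17.1 CPM, where 100 receptor genes of the background described next had at least as many UMIs in the S1pr2fl/fl K14-Cre section, and whether its probes lie in the removed part is not given in the sources used here, so the deletion was not checked by these counts.

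The sections differed in their tissue make-up and in their background. The 15 keratinocyte markers together made up 5.38% of UMIs in the S1pr2fl/fl section and 1.84% in the S1pr2fl/fl K14-Cre section, with none of them at 0. In the S1pr2fl/fl K14-Cre section 14 of the 15 were lower and 1 was higher, each beyond counting error. Summed muscle markers were higher there by 1.73 on the log2 scale and summed fat markers by 1.54. The 1226 olfactory, vomeronasal, taste and trace amine receptor genes served as the low-count background. They had 14430 UMIs in the S1pr2fl/fl section and 20861 in the S1pr2fl/fl K14-Cre section, a log2 ratio of 1.43 (1.40 to 1.46). The highest single receptor gene had 202 and 225 UMIs, against 95th percentiles of 22 and 34, so not every gene of the list was low. The median log2 ratio of all genes was 0.42 over all tissue spots and 0.85 over the 2 uppermost spots. The part of tissue make-up and background in the differences below was not tested.

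By RefSeq on GRCm38.p6, 5 of the 8 genes lie together on chromosome 2 within 198.3 kb, from Il1f8 (chr2:24153172-24160103) through Il1f9 (chr2:24186476-24193567), Il1f6 (chr2:24215417-24225701) and Il1f5 (chr2:24276954-24282432) to Il1rn (chr2:24336860-24351491). Il1a (chr2:129299609-129310186) and Il1b (chr2:129364569-129371164) lie farther along the same chromosome, and Il1rl2 (chr1:40324589-40367555) is on chromosome 1. Promoter windows of 250 bases before the start site were read for 7 of the 8 genes, 10 windows in all, and not for Il1f6. They were searched for the AP-1 motif TGANTCA, which reads the same on both strands and which 6.75% of the 32851 promoters of this length hold. It was found in 3 of the 10 windows, those of Il1f8, Il1a and the first start site of Il1rn. Of this cluster, Il1f8, Il1f9, Il1f5 and Il1rn shared their depth pattern. Over the 2 uppermost spots the difference between the sections was nearly the same for Il1f9 and Il1f5, larger for Il1f8 and smaller for Il1rn. For these 4 genes the windows are shown, of an IL-36 agonist with a match and one without, and of the first start site of both antagonists. All are on the plus strand, 5′ to 3′, with the motif in capitals.
Il1f8, chr2:24152922-24153171: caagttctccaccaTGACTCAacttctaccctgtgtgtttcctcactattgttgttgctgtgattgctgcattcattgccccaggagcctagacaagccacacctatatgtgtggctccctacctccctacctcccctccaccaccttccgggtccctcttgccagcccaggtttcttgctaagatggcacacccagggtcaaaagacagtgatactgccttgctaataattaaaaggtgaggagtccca
Il1f9, chr2:24186226-24186475: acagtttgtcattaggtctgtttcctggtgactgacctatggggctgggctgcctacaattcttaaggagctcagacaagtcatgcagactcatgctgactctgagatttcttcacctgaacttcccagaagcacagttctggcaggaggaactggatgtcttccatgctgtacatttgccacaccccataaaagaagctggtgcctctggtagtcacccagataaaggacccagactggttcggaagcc
Il1f5, chr2:24276704-24276953: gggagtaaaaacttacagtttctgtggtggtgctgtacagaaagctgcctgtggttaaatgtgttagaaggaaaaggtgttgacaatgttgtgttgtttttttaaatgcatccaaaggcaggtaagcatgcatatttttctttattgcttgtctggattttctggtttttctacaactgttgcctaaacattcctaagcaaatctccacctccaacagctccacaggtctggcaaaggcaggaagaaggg
Il1rn, chr2:24336610-24336859: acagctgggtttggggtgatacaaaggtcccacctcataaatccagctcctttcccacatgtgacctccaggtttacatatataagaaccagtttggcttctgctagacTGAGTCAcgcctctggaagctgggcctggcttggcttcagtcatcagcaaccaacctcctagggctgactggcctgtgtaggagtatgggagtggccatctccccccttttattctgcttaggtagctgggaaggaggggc
The match lay 236 bases before the start site in Il1f8 and 141 bases before it in Il1rn. A match is a description of the letters, and its absence in the Il1f9 and Il1f5 windows says nothing of factor binding.

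Over skin depth, the 3 IL-36 agonists and both antagonists were highest in the uppermost spot of each array column in both sections. Depth was counted in spots from the surface, in layers 1 to 6, with the sixth holding all deeper spots. Il1f6 had 923 CPM (861 to 987) in layer 1 of the S1pr2fl/fl section, 311 in layer 2 and 127 in layer 5, where it was lowest. The S1pr2fl/fl K14-Cre section had 169 CPM (136 to 208) in layer 1, 20.5 in layer 2 and 9.73 in layer 5. Il1f6 was thus lower in the S1pr2fl/fl K14-Cre section in each of the 6 layers, with intervals that did not overlap. In layers 2, 3 and 5 of that section it did not stand above the background. The 95th percentile of the receptor genes was 20.5, 13.2 and 18.7 CPM in these layers. Layers of the same number were unlike in tissue between the sections, by the marker values given below.

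Il1f9 fell off less steeply than Il1f6 at first. It had 842 CPM (784 to 904) in layer 1 and 429 in layer 2 of the S1pr2fl/fl section, and 383 (332 to 440) and 118 in the S1pr2fl/fl K14-Cre section. Il1f8 had 189 CPM (162 to 220) against 55.1 (36.9 to 79.1) in layer 1, and in layers 3 and 5 of the S1pr2fl/fl K14-Cre section no UMI of it was counted. In layer 3 the exact upper limit was 6.10 CPM, against 59.4 CPM in the S1pr2fl/fl section.

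The antagonists followed the same depth order but separated between the sections. Il1f5 had 1275 CPM (1202 to 1350) in layer 1 of the S1pr2fl/fl section and 645 (579 to 718) in that of the S1pr2fl/fl K14-Cre section. Il1rn had 1641 CPM (1559 to 1726) against 1625 (1518 to 1738), so that in the uppermost spots the sections overlapped for this gene. From layer 2 down they did not: Il1rn had 879 CPM (826 to 935) against 443 (391 to 501) in layer 2 and 460 (418 to 505) against 95.9 (72.8 to 124) in layer 3. Layers 1 and 2 of the S1pr2fl/fl section held between 66.5% (Il1f9) and 69.5% (Il1f6) of the UMIs of these 5 genes, and in the S1pr2fl/fl K14-Cre section between 74.8% (Il1f6) and 88.7% (Il1f5), while they held 39.0% and 39.1% of all UMIs. The keratinocyte markers had the same shape, with 65.5% and 88.4% of their UMIs in these layers, and 22635 and 2508 CPM in layer 5. Layers of the same number held unlike tissue in the 2 sections. Keratinocyte markers had 71020 and 24828 CPM in layer 2 and 39637 and 4386 CPM in layer 3. Summed muscle markers had 1093 and 8970 CPM in layer 2 and 8897 and 65750 CPM in layer 3. The part of this in the differences between equal layers was not tested.

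**Figure D1:**
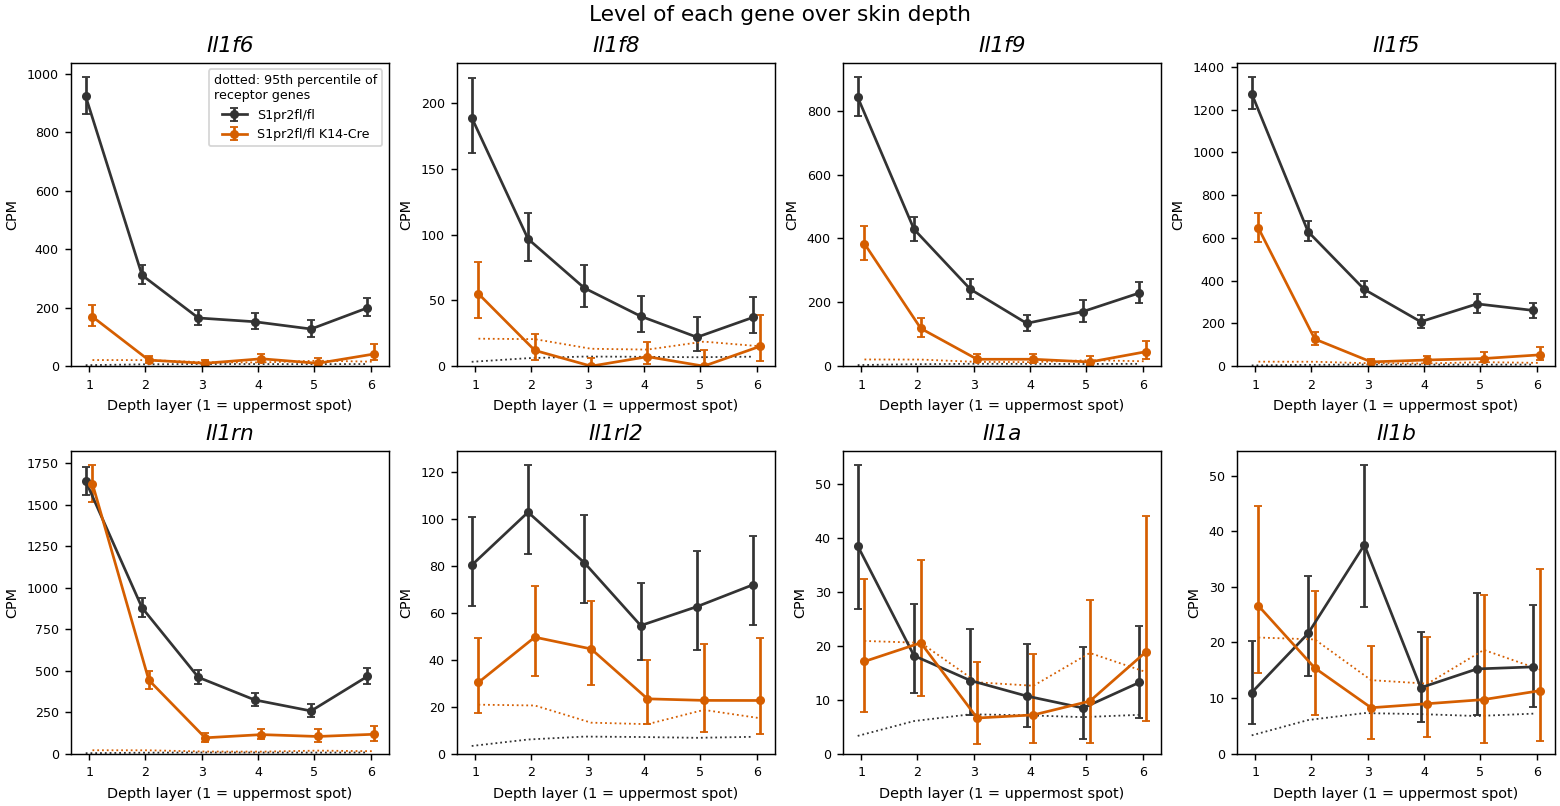
CPM of each gene (vertical axis, a scale of its own in each panel) against depth layer (1 = uppermost tissue spot of an array column, 6 = sixth and deeper) in the S1pr2fl/fl and S1pr2fl/fl K14-Cre sections, with exact Poisson 95% intervals as bars and the 95th percentile of the 1226 receptor genes as dotted lines. The 3 IL-36 agonists, Il1f5 and Il1rn peak in layer 1 in both sections, Il1rn starts at 1641 and 1625 CPM, and Il1a and Il1b of the S1pr2fl/fl K14-Cre section run near the dotted line. In that section Il1f8 in layers 2 to 6, Il1f6 in layers 2, 3 and 5 and Il1f9 in layer 5 also lie at or under it.

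The receptor and Il1b did not share this pattern, and Il1a shared it in the S1pr2fl/fl section, on few UMIs. Il1rl2 varied less over depth, with its highest level in layer 2 in both sections, 103 CPM (85.2 to 123) in the S1pr2fl/fl section and 49.6 (33.2 to 71.3) in the S1pr2fl/fl K14-Cre section. Its lowest layer means were 54.6 and 22.7 CPM. Il1a was highest in layer 1 of the S1pr2fl/fl section, with 35 UMIs or 38.5 CPM (26.8 to 53.5), and it had 9 UMIs or 17.1 CPM (7.81 to 32.4) in that of the S1pr2fl/fl K14-Cre section. Il1b was highest in layer 3 of the S1pr2fl/fl section, with 36 UMIs or 37.5 CPM (26.3 to 52.0), and had 10 UMIs or 11.0 CPM (5.27 to 20.2) in its layer 1. Il1b of the S1pr2fl/fl K14-Cre section had 14 UMIs in layer 1, 26.6 CPM (14.5 to 44.6), and from 3 to 9 UMIs in each deeper layer, so no order of depth could be read there.

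Set against the deepest layers, the 2 uppermost spots of each column had at least 2-fold more Il1f6, Il1f8, Il1f9, Il1f5, Il1rn and Il1a in the S1pr2fl/fl section, which is 6 of the 8 genes, where 7.54% of the 15308 genes compared did so. In the S1pr2fl/fl K14-Cre section the 2-fold mark was passed by 5 of the 8, all but the IL-1 agonists and Il1rl2, where 32.9% of 16889 genes did. The log2 ratio of Il1rn was 1.68 (1.54 to 1.82) and 3.19 (2.82 to 3.58) in the respective sections, and that of Il1f6 was 1.78 (1.58 to 1.98) and 1.90 (1.08 to 2.82). For Il1f9 it was 1.57 (1.39 to 1.76) and 3.13 (2.40 to 3.95). The intervals of the sections overlapped for Il1f6 and did not for Il1f9 and Il1rn. The background moved the same way between the sections. Summed receptor genes stood at -0.60 (-0.66 to -0.53) in the S1pr2fl/fl and 0.86 (0.80 to 0.92) in the S1pr2fl/fl K14-Cre section. The medians of all genes compared were -0.32 and 0.45. The steeper Il1f9 and Il1rn ratios were therefore not read as particular to these genes. From layer 5 to layer 6 the keratinocyte markers rose in both sections. They went from 22635 to 31643 CPM in the S1pr2fl/fl and from 2508 to 4123 CPM in the S1pr2fl/fl K14-Cre section. Each section bends at its end, the layers were not recomputed without it, and its part in these ratios was not tested.

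**Figure D2:**
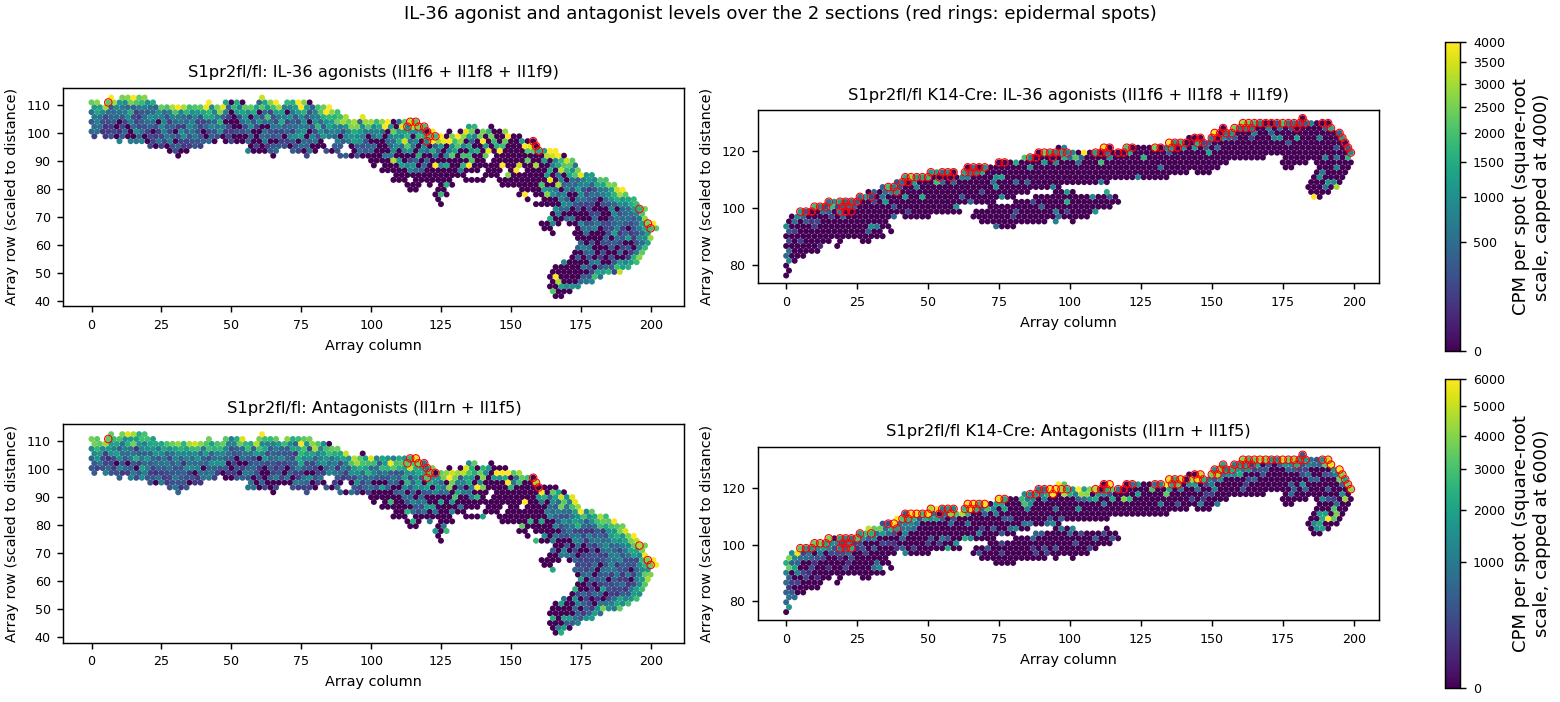
Spots of each section by array column and row, coloured by the summed CPM of the IL-36 agonists (upper panels) and of the antagonists (lower panels) on a square-root scale, with red rings around the epidermal spots chosen by keratinocyte markers, 16 in the S1pr2fl/fl and 106 in the S1pr2fl/fl K14-Cre section. Both groups of genes form a band along the upper edge, which in the S1pr2fl/fl section reaches deeper into the tissue and, at its right end, follows the bend of the section.

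Epidermal spots were chosen by markers alone, as spots with at least 200 UMIs in which the 15 keratinocyte markers, none of them a family member, took at least 3 times the share of UMIs they took in the whole section. Because that share was already high across the S1pr2fl/fl section, only 16 of its spots with 60691 UMIs passed, against 106 spots with 346065 UMIs in the S1pr2fl/fl K14-Cre section. Values over these spots therefore rest on few counts in the S1pr2fl/fl section. The spots were also unlike in make-up, since the markers took 18.1% of their UMIs in the S1pr2fl/fl and 7.27% in the S1pr2fl/fl K14-Cre section. Other sets were 142 and 196 wider epidermal spots at 2 times the share (13.2% and 6.10%), the 404 and 400 uppermost spots (2 per column), which depend on no marker, and 430 and 125 spots with at least 5% keratinocyte UMIs in both sections, a common share chosen after seeing the data.

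Within each section the epidermal spots were richer than the other tissue spots in the 5 genes with a surface pattern. In the S1pr2fl/fl section Il1f6 had 1170 CPM in epidermal and 316 CPM in other spots, a log2 ratio of 1.89 (1.53 to 2.23), and the ratios were 1.62 for Il1f5, 1.45 for Il1rn, 1.36 for Il1f8 and 0.74 (0.22 to 1.22) for Il1f9. One of the 16 spots held 29 of the 71 Il1f6 UMIs, the median per spot was 1, and as the mean of spot CPM the ratio of Il1f6 was 0.94. In the S1pr2fl/fl K14-Cre section Il1f5 had 731 CPM in epidermal and 86.0 CPM in other spots, a log2 ratio of 3.09 (2.82 to 3.36), and the ratios were 2.81 for Il1rn, 2.74 for Il1f9 and 2.32 for Il1f8. Il1f6 was 8.01-fold higher there, with 205 and 25.6 CPM. So 4 of 8 genes were at least 2-fold higher in epidermal spots of the S1pr2fl/fl section, where 7.93% of 17683 genes were, and 5 of 8 in those of the S1pr2fl/fl K14-Cre section, where 14.3% of 18080 genes were. These counts move with the choice of spots: as the mean of spot CPM Il1f6 was 1.93-fold higher in the S1pr2fl/fl section, under the 2-fold mark, and Il1f9, at 1.67-fold over the 16 spots, was 2.91-fold higher at 2 times the share and 3.10-fold higher over the 2 uppermost spots. For Il1rl2, Il1a and Il1b the intervals included 0 in both sections. Il1rl2 had 49.4 and 78.0 CPM in epidermal and other spots of the S1pr2fl/fl section and 37.6 and 34.0 CPM in those of the S1pr2fl/fl K14-Cre section.

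Between the sections, the summed IL-36 agonists were lower per total UMIs in the S1pr2fl/fl K14-Cre section over all tissue spots, the 2 uppermost spots and both sets of epidermal spots, Il1f6 most of the 3, while the ratio of Il1rn was nearer 0. Over the 2 uppermost spots Il1f6 had 1199 UMIs or 580 CPM in the S1pr2fl/fl section and 101 UMIs or 90.9 CPM in the S1pr2fl/fl K14-Cre section, 6.38-fold lower, with a log2 ratio of -2.67 (-2.98 to -2.38). Il1f8 had 284 UMIs or 137 CPM against 36 UMIs or 32.4 CPM, a log2 ratio of -2.08 (-2.63 to -1.58). Il1f9 had 1262 UMIs or 611 CPM against 271 UMIs or 244 CPM, a log2 ratio of -1.32 (-1.52 to -1.13). The intervals of Il1f6 and Il1f9 did not overlap, so the agonists were not lower by the same factor. Those of Il1f6 and Il1f8 overlapped.

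Of the antagonists, Il1f5 had 1887 UMIs or 913 CPM against 414 UMIs or 373 CPM over the same spots, a log2 ratio of -1.29 (-1.45 to -1.14), close to that of Il1f9. Il1rn had 2509 UMIs or 1214 CPM against 1115 UMIs or 1004 CPM, a log2 ratio of -0.27 (-0.38 to -0.17). The receptor Il1rl2 had 192 UMIs or 92.9 CPM against 45 UMIs or 40.5 CPM, a log2 ratio of -1.20 (-1.70 to -0.72). Il1a had 56 and 21 UMIs, with a log2 ratio of -0.52 (-1.32 to 0.23), and Il1b 35 and 23 UMIs, with 0.29 (-0.54 to 1.09). For neither was a difference detectable at this depth. The 95th percentile of the receptor genes over these spots was 8 UMIs in the S1pr2fl/fl and 21 in the S1pr2fl/fl K14-Cre section. In the latter Il1a was thus at the background and Il1b just above it.

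Of the 8 genes, 5 were at least 2-fold lower in the S1pr2fl/fl K14-Cre section over the 2 uppermost spots, namely Il1f6, Il1f8, Il1f9, Il1f5 and Il1rl2, where 5.44% of 17441 genes were. The same 5 genes were at least 2-fold lower over all tissue spots, where 4.59% of 18975 genes were and where 29.6% were at least 2-fold higher, and over the 2 uppermost spots 45.4% were. None of the 8 was at least 2-fold higher in either set. Of the 15 keratinocyte markers, 10 were at least 2-fold lower and 1 at least 2-fold higher over the 2 uppermost spots. Over all tissue spots 11 of the 15 were at least 2-fold lower and 0 higher. All 7 markers of differentiated keratinocytes were at least 2-fold lower over the 2 uppermost spots, and 0 of the 5 basal markers were. The median log2 ratio of the 8 was -1.43 over all tissue spots and -1.25 over the 2 uppermost spots, beside medians of 0.42 and 0.85 over all genes. Over the epidermal spots 6 genes had the 10 UMIs needed for this count, and 3 of them, Il1f6, Il1f8 and Il1f5, were at least 2-fold lower, where 13.1% of 6652 genes were, and none was at least 2-fold higher, where 43.4% were.

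In the epidermal spots Il1f6 had 71 UMIs in each section, 1170 CPM in the S1pr2fl/fl and 205 CPM in the S1pr2fl/fl K14-Cre section, a log2 ratio of -2.51 (-3.01 to -2.02). Il1f8 had 12 and 18 UMIs, with -1.93 (-3.06 to -0.74). Il1f9 had 36 and 150 UMIs, 593 and 433 CPM, with -0.45 (-0.99 to 0.11), an interval that included 0. Over the 142 and 196 wider epidermal spots it had 838 and 382 CPM, with -1.13 (-1.36 to -0.91). Il1f5 had 1582 and 731 CPM in the epidermal spots, with -1.11 (-1.46 to -0.76), and Il1rn 1895 and 1849 CPM, with -0.04 (-0.32 to 0.26). At the common 5% share the log2 ratio was -1.54 for Il1f6, -1.09 for Il1f8, -0.45 for Il1f9, -0.36 for Il1f5 and 0.58 for Il1rn. As the mean of spot CPM it was -1.59 for Il1f6, -2.50 for Il1f8, 0.13 for Il1f9, -0.31 for Il1f5 and 0.49 for Il1rn. In that setting Il1f8 was farther down than Il1f6. So Il1f6 and Il1f8 were lower in the S1pr2fl/fl K14-Cre section in all these sets, by sizes that moved with the choice. Il1f9 and Il1rn had no settled direction. In the 3-times epidermal spots Il1a had 1 and 3 UMIs, Il1rl2 3 and 13, and Il1b 0 and 5, too few for a comparison. Over the wider epidermal spots Il1a had 28 and 7 UMIs, with -1.84 (-3.28 to -0.61), and Il1b 1 and 9 UMIs, with 3.33 (0.48 to 8.79), but 293 and 184 receptor genes had at least as many UMIs as Il1a and Il1b there in the S1pr2fl/fl K14-Cre section.

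**Figure D3:**
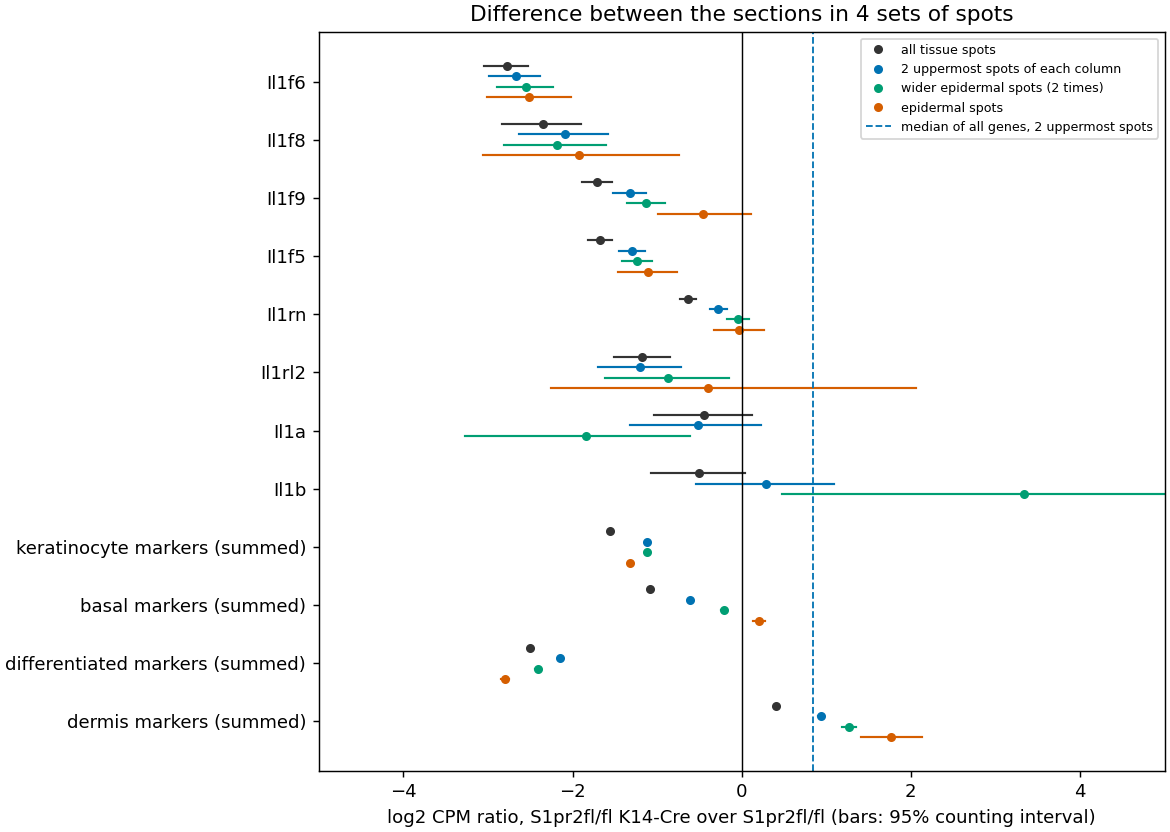
Log2 CPM ratio of the S1pr2fl/fl K14-Cre over the S1pr2fl/fl section (horizontal axis) for each gene and for 4 summed marker lists in 4 sets of spots, with 95% counting intervals as bars, values with under 10 UMIs or a 0 left out, and the median of all genes over the 2 uppermost spots as a dashed line at 0.85 (the bar of Il1b in the wider epidermal spots runs past the edge). Il1f6 lies between -2.78 and -2.51 and Il1rn between -0.63 and -0.04 in the 4 sets drawn, which leave out the common 5% share (-1.54 and 0.58), and the summed differentiated markers between -2.80 and -2.15.

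As a sum, the keratinocyte markers moved with these genes. Over the 2 uppermost spots their summed log2 ratio was -1.12, that of the 5 basal markers, such as Krt5 and Krt14, -0.61 and that of the 7 differentiated markers, such as Krt1, Krt10 and Lor, -2.15, while summed dermis markers stood at 0.93 and summed muscle markers at 2.68. Per UMI of the 15 keratinocyte markers, the IL-36 agonists of these spots had a log2 ratio of -0.73 (-0.89 to -0.58) and Il1f6 of -1.55 (-1.86 to -1.26), but Il1f9 only of -0.20 (-0.40 to -0.01) and Il1f5 of -0.17 (-0.33 to -0.02), and Il1rn was higher, 0.85 (0.74 to 0.95). Per UMI of the basal markers the IL-36 agonists had -1.24 (-1.40 to -1.09) and Il1rn 0.34 (0.23 to 0.44). Most basal marker UMIs of these spots were of Krt14, 54994 of 65944 in the S1pr2fl/fl and 18616 of 23227 in the S1pr2fl/fl K14-Cre section. Per UMI of the differentiated markers the direction of the IL-36 agonists turned, to 0.29 (0.14 to 0.44), though Il1f6 stayed at -0.52 (-0.83 to -0.23). Per UMI of the differentiated keratin Krt10 alone, Il1f6 stood at 0.05 (-0.25 to 0.35), Il1f8 at 0.64 (0.10 to 1.15) and Il1f9 at 1.40 (1.21 to 1.59). Whether IL-36 agonists were lower in the S1pr2fl/fl K14-Cre section thus depended on what they were counted against, Il1f6 included. In the smaller set of epidermal spots Il1f6 per differentiated marker UMI stood at 0.29 (-0.21 to 0.79). Il1f9 there was higher per keratinocyte marker UMI, 0.86 (0.33 to 1.43), and per differentiated marker UMI, 2.35 (1.82 to 2.92).

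Set against Il1rn in the same spots, which removes the total, Il1f6 was 5.28-fold lower in the 2 uppermost spots of the S1pr2fl/fl K14-Cre section, with a log2 ratio of -2.40 (-2.72 to -2.09). The values were -1.81 for Il1f8, -1.05 for Il1f9, -1.02 (-1.21 to -0.83) for Il1f5 and -0.92 (-1.44 to -0.44) for Il1rl2. In the epidermal spots Il1f6 stood at -2.48 (-3.06 to -1.89) against Il1rn, Il1f5 at -1.08 (-1.54 to -0.62) and Il1f9 at -0.42 (-1.03 to 0.23). Dividing by Il1rn shifts the log2 ratios of all genes in a set of spots by the same amount. The order of the genes here is thus that of their CPM ratios and is no separate check. All 5 had CPM ratios below that of Il1rn (-0.27) in the 2 uppermost spots, so their values there had to be negative. Il1f6 was the farthest below Il1rn of the 5 in these spots. Its interval overlapped that of Il1f8 (-2.36 to -1.29).

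The make-up of the IL-36 agonist UMIs, which depends on probe yield within a section but can be set between sections, held less Il1f6 in the S1pr2fl/fl K14-Cre section. Over the 2 uppermost spots Il1f6 gave 43.7% (41.8 to 45.6) of the summed agonist UMIs in the S1pr2fl/fl section and 24.8% (20.6 to 29.2) in the S1pr2fl/fl K14-Cre section, by exact Clopper-Pearson intervals. Il1f9 gave 46.0% (44.1 to 47.9) and 66.4% (61.6 to 71.0). In the epidermal spots the shares of Il1f6 were 59.7% (50.3 to 68.6) and 29.7% (24.0 to 35.9). Of the 71 Il1f6 UMIs behind the first value, 29 came from 1 of 16 spots, a spread its interval does not cover. Over the wider epidermal spots the shares were 45.2% (42.4 to 47.9) and 25.6% (21.1 to 30.6). Il1f8 gave 10.3% and 8.82% over the 2 uppermost spots, with intervals that overlapped.

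Along the sections the difference was found throughout. When each section was cut into 4 segments along its length, Il1f6 lay between 486 and 743 CPM in the uppermost spots of the S1pr2fl/fl segments and between 80.8 and 109 CPM in those of the S1pr2fl/fl K14-Cre section. For Il1f6, Il1f8, Il1f9, Il1f5, Il1rn and Il1rl2 all 16 pairs of segments had the lower level in the S1pr2fl/fl K14-Cre section, as had the summed keratinocyte markers. Il1rn came closest, with 1051 to 1690 CPM against 893 to 1040 CPM. Il1b was higher in the S1pr2fl/fl K14-Cre segment in 13 of 16 pairs, from 0 to 21.5 CPM against 9.62 to 32.5 CPM. It had 10 or fewer UMIs in each segment but 1. Summed receptor genes over these spots had a log2 ratio of 2.34 in the same direction, and the part of this background in the Il1b levels was not tested. Segments of a section are not replicates of a genotype.

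**Figure D4:**
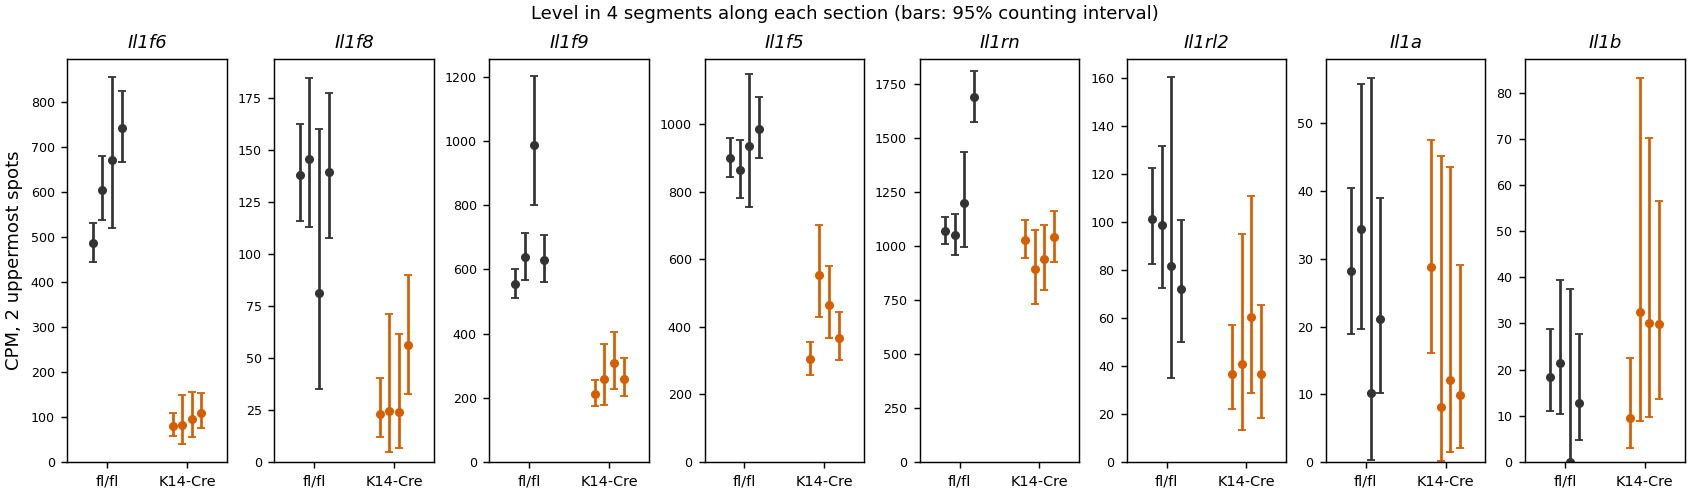
CPM of each gene over the 2 uppermost spots of each array column (vertical axis, a scale of its own in each panel) in 4 segments along the S1pr2fl/fl (fl/fl) and the S1pr2fl/fl K14-Cre (K14-Cre) section, with exact Poisson 95% intervals as bars. The levels of the segments of the 2 sections are apart for the IL-36 agonists, Il1f5, Il1rl2 and, narrowly, Il1rn, and overlap for Il1a and Il1b. Some bars of the 2 sections overlap for Il1f8, Il1rl2 and Il1rn as well.

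The antagonist Il1f5 was lower in the S1pr2fl/fl K14-Cre section by less than the summed agonists it opposes, so its ratio to their sum was higher there. Over the 2 uppermost spots there were 0.687 (0.648 to 0.729) Il1f5 UMIs per IL-36 agonist UMI in the S1pr2fl/fl section and 1.01 (0.883 to 1.17) in the S1pr2fl/fl K14-Cre section, a log2 ratio of ratios of 0.56 (0.34 to 0.78). In layer 1 the ratios were 0.652 (0.605 to 0.703) and 1.06 (0.909 to 1.24), and from layer 2 to layer 6 the intervals of the sections overlapped. In the epidermal spots they were 0.807 (0.610 to 1.06) and 1.06 (0.884 to 1.27), with a log2 ratio of ratios of 0.39 (-0.09 to 0.88) that included 0. Il1f5 and Il1f9 had nearly the same log2 ratio between the sections over the 2 uppermost spots, -1.29 and -1.32, while Il1f6 and Il1f8 were lower than both. In the epidermal spots Il1f5 (-1.11) was lower by more than Il1f9 (-0.45), with intervals that overlapped.

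Il1rn per UMI of Il1a and Il1b was highest in layer 1 in both sections. The ratio there was 33.2 (24.7 to 45.7) in the S1pr2fl/fl and 37.2 (24.6 to 59.0) in the S1pr2fl/fl K14-Cre section. In layers 5 and 6 together it was 14.2 (10.2 to 20.3) and 4.50 (2.49 to 8.70), where the intervals did not overlap. Over all tissue spots it was 19.1 and 17.1, with a log2 ratio of ratios of -0.16 (-0.56 to 0.25). The deep layers of the S1pr2fl/fl K14-Cre section held 14 agonist UMIs, 8 of Il1a and 6 of Il1b. At or above these counts were 68 receptor genes for Il1a and 148 for Il1b, so the deep ratio rests on counts at the background. In layer 1 of that section Il1a, at 17.1 CPM, lay under the 95th percentile of the receptor genes, 20.9 CPM, and Il1b, at 26.6 CPM, above it. Over all its tissue spots Il1a had 37 and Il1b 39 UMIs, against a 95th percentile of 34. The other ratios of that section are thus limited by the background too.

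**Figure D5:**
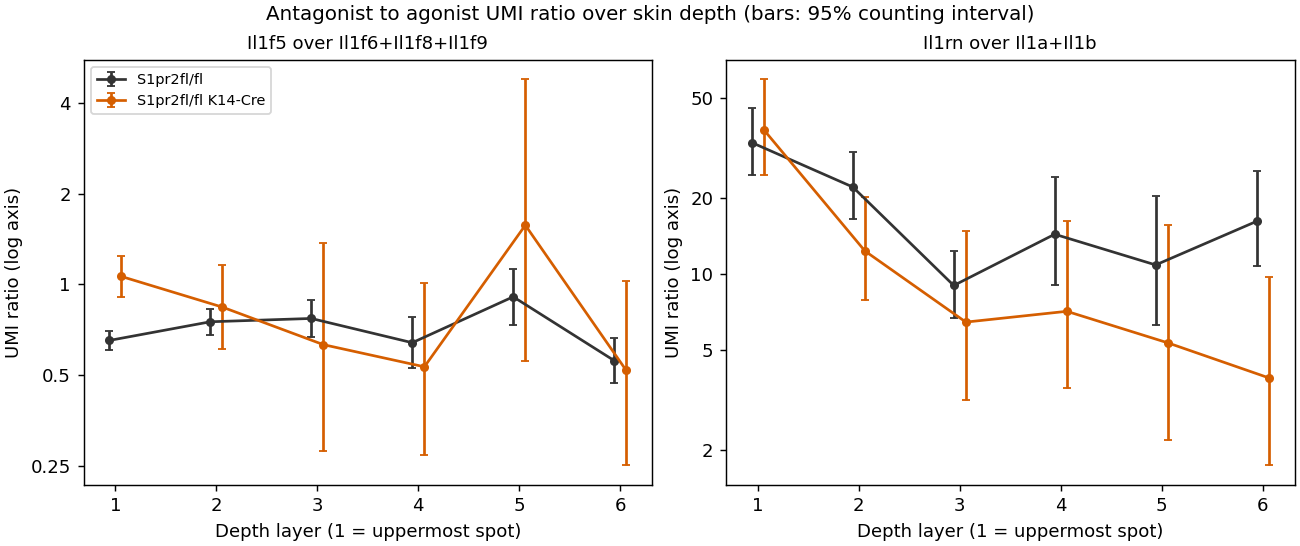
UMIs of the antagonist per UMI of its agonists (vertical log axis) by depth layer in the S1pr2fl/fl and S1pr2fl/fl K14-Cre sections, for Il1f5 over the 3 IL-36 agonists (left) and Il1rn over Il1a and Il1b (right), with 95% counting intervals as bars. The left ratio is apart only in layer 1, at 0.652 and 1.06, and the right ratio is highest in layer 1 in both sections.

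The members differed in how far they stood above the low-count background. Over all tissue spots all 8 genes stood above the 95th percentile of the receptor genes, which was 22 UMIs in the S1pr2fl/fl and 34 in the S1pr2fl/fl K14-Cre section. Il1f6, Il1f9, Il1rn and Il1f5 were far above it, while 18 receptor genes had at least as many UMIs as Il1f8 (44) in the S1pr2fl/fl K14-Cre section, and Il1a with 37 and Il1b with 39 UMIs were just above its 95th percentile, with 45 and 32 receptor genes at or above them. In the epidermal spots of that section Il1a (3 UMIs) and Il1b (5 UMIs) were within the background, whose 95th percentile was 7 UMIs, and 177 receptor genes had at least as many as Il1b. Receptor genes over the 2 uppermost spots had a summed log2 ratio of 2.34 (2.29 to 2.39), in the opposite direction to the IL-36 agonists. When spots were thinned to 1000 UMIs each, leaving 337 of 404 and 348 of 400 uppermost spots, Il1f6 was found in 42.1% of spots in the S1pr2fl/fl and 6.61% in the S1pr2fl/fl K14-Cre section, against 69.1% and 15.2% before thinning. Il1rn was found in 60.2% and 45.1% after thinning, against 80.9% and 56.5% before.

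Among epidermal spots, those richer in differentiated than in basal markers held more IL-36 agonist and Il1f5 but not more Il1rn. The 142 and 196 wider epidermal spots were parted at the median of that balance, into 71 and 71 spots in the S1pr2fl/fl and 98 and 98 in the S1pr2fl/fl K14-Cre section. The IL-36 agonists had 2175 CPM in the differentiation-rich and 1664 CPM in the basal-rich spots of the S1pr2fl/fl section, a log2 ratio of 0.39 (0.22 to 0.55), and 794 and 445 CPM in the S1pr2fl/fl K14-Cre section, 0.84 (0.52 to 1.15). Il1f5 had 0.55 (0.36 to 0.75) and 1.03 (0.72 to 1.34). Il1rn had 1595 and 1608 CPM in the S1pr2fl/fl section, -0.01 (-0.19 to 0.16), and 1462 and 1606 CPM in the S1pr2fl/fl K14-Cre section, -0.14 (-0.33 to 0.06). Each section was parted at its own median, and the wider epidermal spots held 59152 differentiated to 23571 basal marker UMIs in the S1pr2fl/fl and 9954 to 18151 in the S1pr2fl/fl K14-Cre section, so the groups of the sections are unlike and are compared only within a section.

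The genes whose pattern was most like each member's were found by the Pearson correlation of log2(CPM + 10) over 48 bins of depth and segment, among 7584 genes. These bins share 2 libraries and a surface gradient, so the correlations describe these sections only. The closest to Il1f6 were Sprr2b (r = 0.92), a small proline-rich cornified envelope protein, Lce1a2 (0.90), a late envelope protein, and Krt6b (0.88), a keratin of activated keratinocytes. Il1f8 was closest to Sprr2b (0.88), Klk11 (0.87), an epidermal kallikrein, and Pof1b (0.86). Il1f9 was closest to Teddm3 (0.90) and to Lce3c (0.90) and Lce3b (0.89), late envelope genes of the group known from wounded and psoriatic skin. Il1f5 was closest to Fam25c (0.95), 2310046K23Rik (0.93) and Cnfn (0.91), which encodes cornifelin, and Il1rn to the gap junction gene Gjb6 (0.91), Urah (0.90) and Blmh (0.90), a protease that breaks down filaggrin. Between members, Il1f9 and Il1f5 were closest (0.88), and Il1f6 and Il1rn correlated at 0.68. No gene reached 0.70 for Il1rl2 (Baiap2, Kat7 and Rab8a led), Il1a (Osbpl5, Selenoi and Cks2) or Il1b (Cdk1, Padi4 and Rnaseh1). Il1a and Il1b had few UMIs over both sections, 131 and 142. Il1rl2 had 511, more than Il1f8 with 462.

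The other genes of the pathway were a list of 24, of which 23 had enough UMIs for a fold over all tissue spots. Of these, 2 were at least 2-fold lower in the S1pr2fl/fl K14-Cre section, 2 were at least 2-fold higher, and the median log2 ratio was -0.02, beside 4.59% lower, 29.6% higher and a median of 0.42 over all genes. Over the 2 uppermost spots 2 of 23 were at least 2-fold lower and 5 at least 2-fold higher, with a median of 0.60. Over all genes 5.44% were lower and 45.4% higher there by this mark, with a median of 0.85. The lower ones over all tissue spots were the related cytokines Il33, 132 against 64.7 CPM (log2 ratio -1.03, -1.27 to -0.79), and Il18, 83.3 against 26.0 CPM (-1.68, -2.06 to -1.32). The higher ones were Sigirr, an inhibitory receptor (1.44, 0.72 to 2.17), with 29 and 42 UMIs, and the neutrophil protease Elane (2.18, 1.38 to 3.03), with 19 and 46 UMIs, and summed receptor genes stood at 1.43 in the same comparison. Of the receptor chains, Il1r1 stood at -0.37 (-0.63 to -0.11), the decoy receptor Il1r2 at -0.99 (-1.42 to -0.57) and the shared chain Il1rap at -0.09 (-0.37 to 0.19). Of the adaptors, Myd88 had 109 and 108 CPM (-0.02, -0.22 to 0.18) over all tissue and 121 and 149 CPM (0.30, 0.00 to 0.59) over the 2 uppermost spots, and Traf6 was at -0.82 (-1.16 to -0.49) and -1.11 (-1.62 to -0.63). Of the genes that process the cytokines, the inflammasome adaptor Pycard stood at -0.70 (-0.85 to -0.56) over all tissue, Casp1, which cleaves IL-1β, at 0.43 (0.23 to 0.64), and Ctss, cathepsin S, which can process IL-36γ, at 0.62 (0.51 to 0.72). Il1f10, the remaining gene of the chromosome 2 cluster on this list, had 5 and 1 UMIs and was within the background in both sections.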

How the data were processed

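The 2 skin sections, 1 per genotype, were measured by Visium CytAssist for FFPE tissue. The authors deposited UMI counts per gene and spot, not normalized, for spots over tissue, with array positions. Per the file headers Space Ranger 3.0.0 made the counts, and the submitters' processing notes name mm10. The paper names Partek Flow. Scale factor files were not used. The probe set is not given in the sources used here.

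Members and lists were chosen with earlier results of these data known. The genes named were the 8 members, a pathway list of 24 genes and, for each member with at least 100 UMIs, the 3 genes most like it among genes with at least 200 UMIs. Symbols gave the rows, Lce1a1 of the marker lists was not in the table, and 11 symbols occur more than once, none a member. Depth was the order of spots within an array column, over connected groups of at least 20 spots (1203 and 970 spots). Genes needed 10 UMIs over both sides for a fold. CPM intervals are exact Poisson, shares Clopper-Pearson, ratios conditional binomial and ratios of ratios exact for the 2 by 2 table, all at 95%. The marker-scaled ratios treat marker UMIs as fixed. Python 3.11.15, scipy 1.17.1 and edgeR 4.0.16 (TMM factor only) in R 4.3.3 were used. Of the intervals, only the conditional binomial was tested on simulated data. These were Poisson counts, so the spread between spots was not part of that test. The alternatives were other definitions of epidermal spots, thinning, background and scaling choices. Gene positions and promoters are from RefSeq GRCm38.p6, the assembly of mm10.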

Additional observations from a re-analysis of the deposited data

Results flagged for a closer look

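In the comparison of epidermal with other tissue spots, 2 genes pointed in opposite directions in the 2 sections. Il1rl2 had a log2 ratio of -0.66 (-2.94 to 0.90) in the S1pr2fl/fl section, on 3 UMIs in epidermal spots, and of 0.14 (-0.82 to 0.99) in the S1pr2fl/fl K14-Cre section, on 13. Il1b had no UMI in the epidermal spots of the S1pr2fl/fl section, where 103 lay in the other spots, and a log2 ratio of 0.0871 (-1.62 to 1.45) in the S1pr2fl/fl K14-Cre section, on 5 UMIs. The difference between the sections was not tested, and each of these intervals included 0.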

How the results depend on the processing

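No paired analysis was possible because each genotype was 1 section, and for the same reason no replicate could be left out. No S1pr2fl/fl spot reached 5 times the marker share, so that setting gave values only within the S1pr2fl/fl K14-Cre section, and thinning gave no value for the IL-1 agonists between the sections. Scaling to keratinocyte or differentiated markers, the common 5% share and leaving out the bent end were chosen after seeing the data. The log2 ratio of IL-36 agonists in epidermal spots, -1.51, was -1.85 over the 2 uppermost spots, -2.14 over all tissue spots, -0.92 as the mean of spot CPM, -0.90 in spots with at least 5% keratinocyte UMIs in both sections (430 and 125 spots), -0.19 per keratinocyte marker UMI and reversed to 1.30 per differentiated marker UMI. That of the antagonists, -0.43, was -0.12 after thinning and -0.99 over all tissue spots, and it reversed to 0.17 as the mean of spot CPM, 0.25 at the common 5% share, 0.89 per keratinocyte marker UMI and 2.37 per differentiated marker UMI. The TMM factor gave -1.31 for the IL-36 agonists and -0.23 for the antagonists. Among single genes, Il1f5 reversed to 0.20 per keratinocyte marker UMI and to 1.69 per differentiated marker UMI. Il1f6 reversed to 0.29 and Il1f8 to 0.87 per differentiated marker UMI. The main value of Il1f9, -0.45, had an interval that included 0. It turned to 0.13 as the mean of spot CPM, 0.86 per keratinocyte marker UMI and 2.35 per differentiated marker UMI. The log2 ratio of ratios of Il1f5 to the IL-36 agonists was 0.39 (-0.09 to 0.88), an interval that included 0. It was 0.93 after thinning and above 0 in all 9 alternatives that gave a value. These alternatives share spots of the same 2 sections, so they are not independent checks. The log2 ratio of ratios of Il1rn to the IL-1 agonists ranged from -2.63 to 1.24, within the interval of its main value. Epidermal over other spots, the IL-36 agonists were at 1.39 in the S1pr2fl/fl section and at 1.70 at 2 times the share, 1.73 over the 2 uppermost spots, 1.90 without the bent end, 1.81 after thinning, 1.02 as the mean of spot CPM and 2.02 at the common 5% share. In the S1pr2fl/fl K14-Cre section they were at 2.78, and at 3.18 at 2 times the share, 2.44 after thinning, 3.08 at the common 5% share and 3.20 without the bent end. Low counts of Il1a and Il1b and the 16 epidermal spots of the S1pr2fl/fl section limited the depth of these comparisons. The causes of these shifts were not tested.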
